A study of Mus musculus with 9 samples.

Results

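The genes described here carry iron into, through and out of kidney cells, store it and sense it. They are 10 genes chosen by name: the importers Tfrc and Slc11a2, the iron-binding proteins Trf and Meltf, the ferritin chains Fth1 and Ftl1, the exporter Slc40a1 with the ferroxidase Cp, and the regulators Hfe and Ireb2. Their probes were found through the RefSeq accession that each probe carries, and the brightest probe stood for a gene. All 10 genes had a probe that passed the filter on dim signals, out of 17742 genes tested; 13 of their 14 probes passed. RNA of the whole left kidney was hybridised to a single-colour Agilent array, 1 array per mouse. The groups were kidneys obstructed for 2 days by a vascular clip on the left ureter (Clip, 3 mice), kidneys whose clip had been taken off again 12 days earlier after such an obstruction (ClipR-14, 3 mice), and a control arm of 2 sham-treated mice and 1 untreated mouse. All 9 mice were ISAM males aged 10 weeks on a mixed background, with the genotype Epo-/-::3.3K-Epo3'-Tg458, a model of erythropoietin-deficiency anaemia. The controls therefore carried the same Epo knockout and transgene as the treated mice, and no mouse with intact Epo was measured. When control kidneys were collected is not given, so effects of the treatments and of time after surgery cannot be told apart.

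Iron travels in plasma bound to transferrin, the product of Trf, and cells take it up through the transferrin receptor, the product of Tfrc. Slc11a2 encodes DMT1, which moves ferrous iron across the endosomal and apical membranes; Slc40a1 encodes ferroportin, the cellular iron exporter. Ceruloplasmin, the copper enzyme encoded by Cp, oxidises the exported iron so that transferrin can bind it. Ferritin heavy and light chains (Fth1, Ftl1) form the shell in which cells store iron, and the heavy chain carries the ferroxidase site. Ireb2 encodes IRP2, an RNA-binding protein that stabilises Tfrc mRNA and blocks ferritin translation when cells are short of iron. Hfe encodes an MHC class I-like protein that binds the transferrin receptor. Meltf encodes melanotransferrin, a membrane-anchored relative of transferrin. In the kidney, the proximal tubule reabsorbs filtered transferrin through the receptors megalin and cubilin, and ferritin limits iron-driven damage in injured tubules.

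Levels are log2 of a probe's signal over the array's 75th percentile, so 0 is that percentile; probes differ in brightness, and no level of one gene is set against that of another. That percentile lay between 320.4 and 439 signal units, and 52.0% to 57.5% of an array's probes were well above background. The kidney segment markers Umod, Slc34a1 and Aqp2, of thick limb, proximal tubule and collecting duct, were well above background on all arrays. Cell type markers moved with the groups, and their part in the results below was not tested. In Clip kidneys Umod (-0.78 on the log2 scale; adjusted p = 0.0657 with quantile normalization), Slc34a1 (-2.33) and Aqp2 (-1.77) were lower than in control kidneys, as were 10 of 11 proximal tubule markers, with a summed linear level of 232 to 303 in Clip, 601 to 790 in ClipR-14 and 656 to 821 in control kidneys. Proliferation markers were higher in 10 of 11 cases, with sums of 45.5 to 51.7 in Clip, 14.5 to 16.4 in ClipR-14 and 15.1 to 17.9 in control kidneys. Macrophage and monocyte markers were higher in 11 of 13 cases, with a median change of 2.31 on the log2 scale. Their sums were 160.0 to 184 in Clip, 128 to 138 in ClipR-14 and 109 to 126 in control kidneys. Such sums follow the brightest probes, here Ly6c2, whose own change was 0.25 (adjusted p = 0.0592). In whole-kidney RNA fewer cells of a type and less RNA per cell cannot be told apart. The arms were spread evenly over 3 slides, 1 array per arm on each. Slide 3 held the untreated array and had a scan date of its own, while slides 1 and 2 shared the other.

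Obstructed kidneys were first set against control kidneys. Of the 10 genes, 4 rose in Clip kidneys and 2 fell; 4 did not pass (limma, BH-adjusted p under 0.05 over all genes). Of all genes tested, 21.4% rose and 27.5% fell, so 48.9% were called. With quantile normalization more genes rose (4544) than fell (4039), against 3789 and 4887 here. The rises were those of Meltf, Cp, Trf and Slc40a1, and the falls those of Tfrc and Ireb2. Fth1, Ftl1, Slc11a2 and Hfe did not pass. The median size of change was 0.68 on the log2 scale for the 10 genes and 0.42 for all genes. In the plot of levels by array, Clip stands apart from control for 6 of the 10 genes, against 58.6% of all genes.

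**Figure D1:**
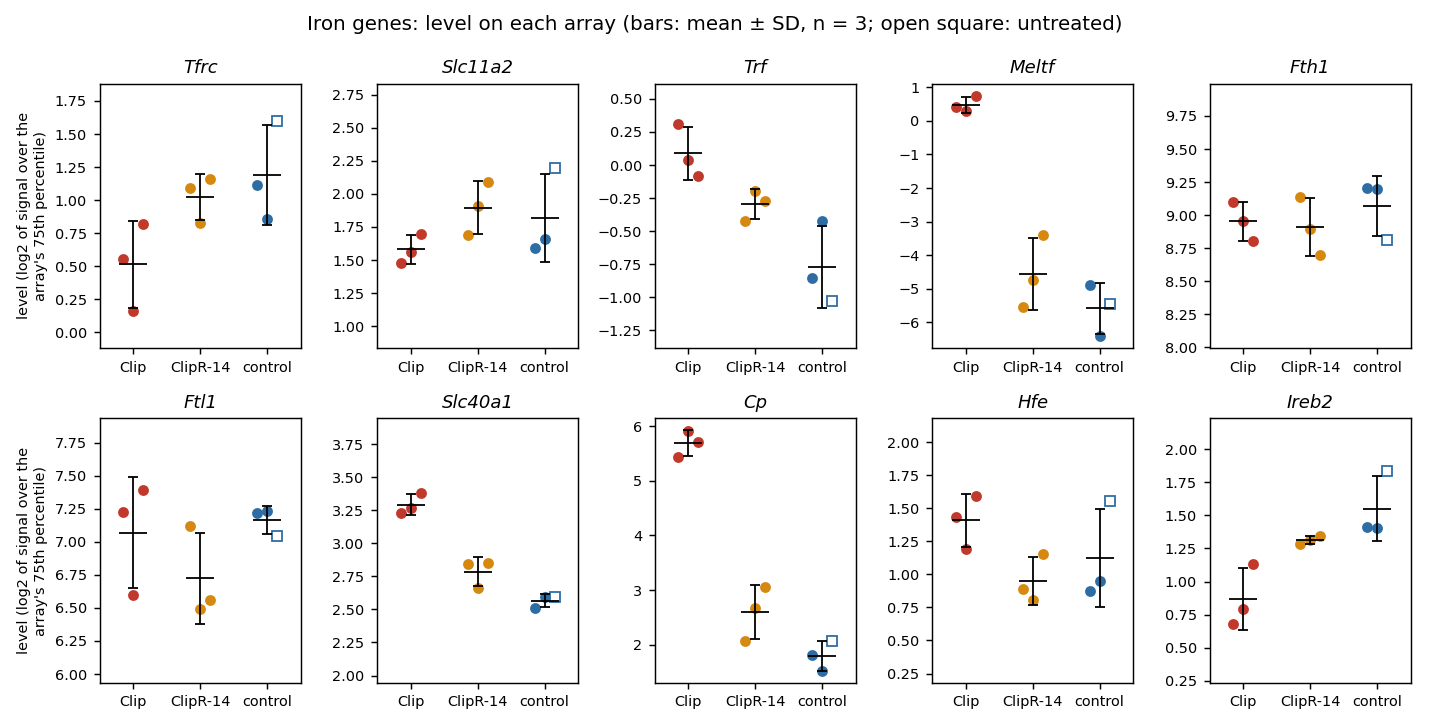
Level of each of the 10 iron genes on each array (y axis, log2 of signal over the array's 75th percentile; panels span different ranges), for Clip, ClipR-14 and control kidneys; bars are the mean ± SD of 3 arrays and the open square is the untreated mouse. Meltf and Cp stand far above the other 2 arms in Clip kidneys, while the 3 arms of Fth1 overlap.

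The sequences just upstream of the genes that changed are shown because these genes moved in opposite directions. RefSeq's promoter table (GRCm38.p6) held 7 of the 10 genes and 4 of the 6 that passed. Each line gives the 250 bases before a gene's most upstream start site in that table, 5′ to 3′ on the + strand. Capitals mark matches, on either strand, to ACGTG or GCGTG, the core that the hypoxia-inducible factors bind, or to TGACNNNGC, the core of the antioxidant response element.
Tfrc, chr16:32608646-32608895: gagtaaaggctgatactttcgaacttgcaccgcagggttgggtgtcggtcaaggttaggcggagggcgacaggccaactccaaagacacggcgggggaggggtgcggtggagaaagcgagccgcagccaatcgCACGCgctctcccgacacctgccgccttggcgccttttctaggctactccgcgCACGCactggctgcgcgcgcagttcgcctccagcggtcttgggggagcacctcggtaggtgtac
Meltf, chr16:31878560-31878809: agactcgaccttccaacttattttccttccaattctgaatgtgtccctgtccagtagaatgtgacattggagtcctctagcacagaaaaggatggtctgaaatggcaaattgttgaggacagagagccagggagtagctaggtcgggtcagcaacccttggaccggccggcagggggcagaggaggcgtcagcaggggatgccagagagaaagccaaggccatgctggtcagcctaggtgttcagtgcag
Cp, chr3:19956804-19957053: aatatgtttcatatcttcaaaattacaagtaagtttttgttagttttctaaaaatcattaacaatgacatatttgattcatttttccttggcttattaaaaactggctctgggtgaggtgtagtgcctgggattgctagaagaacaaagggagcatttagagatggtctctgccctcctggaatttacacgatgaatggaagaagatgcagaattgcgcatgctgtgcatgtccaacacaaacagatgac
Ireb2, chr9:54863505-54863754: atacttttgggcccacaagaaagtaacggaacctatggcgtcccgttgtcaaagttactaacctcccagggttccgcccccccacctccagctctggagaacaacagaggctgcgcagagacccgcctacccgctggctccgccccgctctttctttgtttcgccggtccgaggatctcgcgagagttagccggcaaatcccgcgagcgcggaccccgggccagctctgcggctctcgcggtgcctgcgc
Only the Tfrc window of these 4 held a match: GCGTG on the - strand, at 117 and 64 bases before the start site. A second Tfrc start site lies further downstream, and its 250 bases held ACGTG at 228 and GCGTG at 134 and 42 bases before it, all on the + strand. The second Cp window held none. Among the genes that did not pass, Fth1 and Ftl1 each held GCGTG on the - strand (50 and 47 bases before a start site), and Hfe held TGACNNNGC at 67 bases. ACGTG or GCGTG was found in 38.6% of all 32851 windows of this length, and TGACNNNGC in 10.2%. These are matches of letters and say nothing of binding.

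Among the iron-binding proteins, Meltf had levels of 0.40, 0.30 and 0.75 in Clip kidneys, against -5.55, -4.73 and -3.41 in ClipR-14 kidneys and -4.89, -6.41 and -5.46 in control kidneys. All 3 Clip arrays were well above background and no control array was, so the gene was measured in Clip and lay at the edge of detection elsewhere. Meltf was at least 27.2-fold higher in Clip than in control kidneys, the dim side being set at the lowest signal well above background. The fitted log2 change was 6.07 ± 0.54 (SE, n = 3 per arm; limma, adjusted p = 4.54e-05). With normexp background correction it was 2.78 (adjusted p = 4.16e-06), which is smaller than that bound. Without its Clip arrays Meltf would not have passed the filter, so the filter favoured the group in which it was high. Trf, the plasma carrier that the liver makes in bulk, had levels of 0.31, 0.04 and -0.08 in Clip kidneys, against -0.86, -0.42 and -1.03 in control kidneys. The lowest Clip array lay above the highest control array. Trf rose 1.81-fold (0.86 ± 0.17, adjusted p = 0.00325), by 1.17, 0.47 and 0.94 on the 3 slides. Hepatocyte markers were mixed: of 10, 5 passed the filter, Fga rose, Alb and Ttr fell, and Apoa1, Ahsg and Cyp3a11 were well above background on 0 of 9 arrays.

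On the export side, Cp had levels of 5.44, 5.91 and 5.72 in Clip kidneys, against 1.81, 1.52 and 2.07 in control kidneys. The gap between the arms was many times the spread within them. Cp rose 14.8-fold (3.89 ± 0.26, adjusted p = 1.13e-05), by 3.64, 4.39 and 3.65 on the 3 slides. Slc40a1, for ferroportin, had levels of 3.23, 3.27 and 3.38 in Clip kidneys, against 2.51, 2.59 and 2.60 in control kidneys. Both arms were tight and did not overlap. Slc40a1 rose 1.66-fold (0.73 ± 0.09, adjusted p = 0.000277), with differences of 0.72, 0.68 and 0.78 within slides. Macrophages also express ferroportin, and their markers rose in the same kidneys, as given above. The calls of Cp, Slc40a1, Trf and Meltf were kept under all 17 alternatives.

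Of the importers, Tfrc had levels of 0.56, 0.16 and 0.82 in Clip kidneys, against 1.11, 0.85 and 1.60 in control kidneys. The highest Clip array lay just under the lowest control array, and the untreated kidney was the highest of all 9. Tfrc fell by 0.68 ± 0.22 on the log2 scale in Clip kidneys (adjusted p = 0.0351). On slides 1, 2 and 3 the difference was -0.56, -0.69 and -0.78, and with slide as a block the adjusted p was 0.00216. The call was lost with quantile normalization (adjusted p = 0.0563), without a filter on dim probes (0.0683), with the 2 arms fitted alone (0.0634) and without sham 1 (0.0620), untreated 1 (0.0970), Clip 1 (0.0737) or Clip 2 (0.120). Slc11a2 had levels of 1.48, 1.56 and 1.70 in Clip kidneys, against 1.59, 1.66 and 2.20 in control kidneys. The arms overlapped (-0.24 ± 0.18, adjusted p = 0.297; 95% interval -0.64 to 0.17). Its other 2 probes differed by -0.07 and -0.35 between Clip and control means.

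The storage genes were bright on every array. Fth1 had levels of 9.10, 8.96 and 8.80 in Clip kidneys, against 9.20, 9.20 and 8.81 in control kidneys. On slide 3, where both arrays were dimmest for this gene, the 2 values almost coincided. The change of Fth1 was -0.12 ± 0.16 (adjusted p = 0.566), with a 95% interval of -0.48 to 0.24, and quantile normalization gave it the other sign (0.19, adjusted p = 0.0896). Ftl1 had levels of 7.22, 6.59 and 7.39 in Clip kidneys, against 7.22, 7.23 and 7.04 in control kidneys. The Clip arrays lay on both sides of the control arrays. The change of Ftl1 was -0.10 ± 0.23 (adjusted p = 0.755; 95% interval -0.63 to 0.43), and it was 0.36 with quantile normalization and 0.14 without Clip 2. Mouse ferritin genes have near-identical processed copies that these probes may also bind, so both are less certain than single-copy genes. The arrays measure mRNA, while IRP2 acts on the translation of ferritin.

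Of the regulators, Ireb2 had levels of 0.68, 0.79 and 1.13 in Clip kidneys, against 1.41, 1.40 and 1.83 in control kidneys. The arms did not overlap, and in both the slide 3 array was the highest. Ireb2 fell by 0.68 ± 0.15 on the log2 scale (adjusted p = 0.00635), with differences of -0.73, -0.61 and -0.70 within slides. The call held under all 17 alternatives. A dimmer Ireb2 probe differed by -0.41 between the same arms, and the dimmest probe was well above background on 2 of 9 arrays and was not used. Hfe had levels of 1.44, 1.19 and 1.59 in Clip kidneys, against 0.87, 0.95 and 1.55 in control kidneys. The untreated kidney alone put the arms in overlap. Hfe did not pass (0.29 ± 0.20, adjusted p = 0.265; 95% interval -0.17 to 0.74), and did without untreated 1 (0.50, adjusted p = 0.0305).

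**Figure D2:**
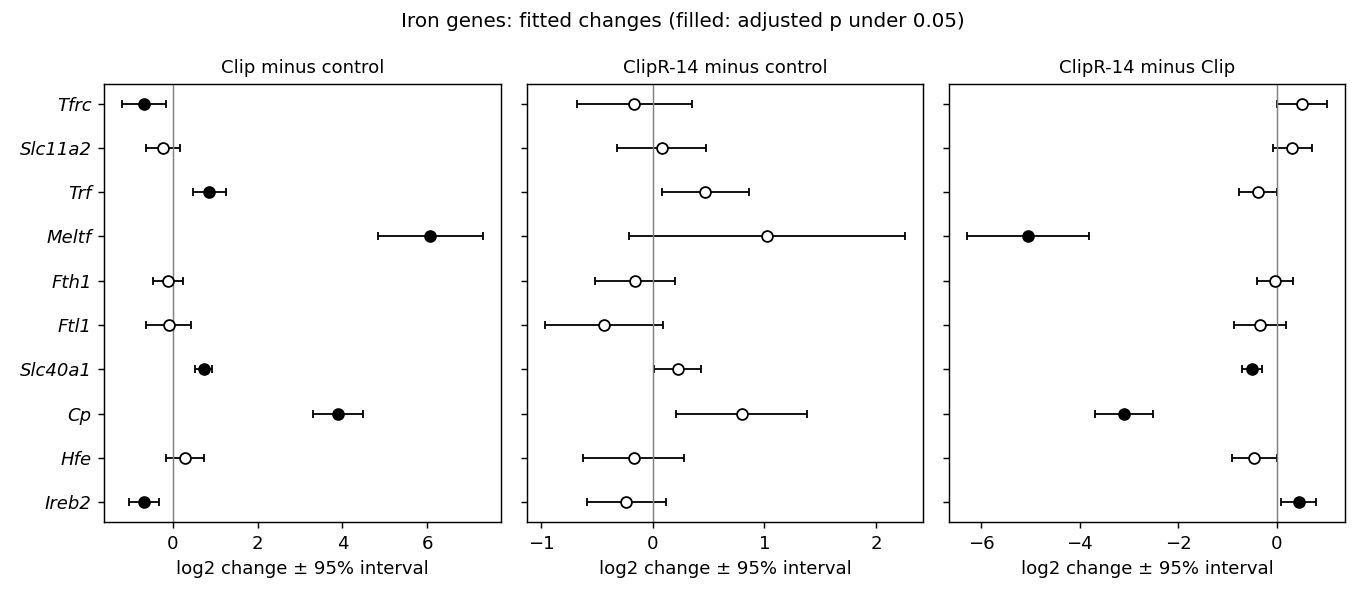
Fitted log2 change of each iron gene (x axis, with 95% interval; each panel has its own range) for Clip minus control, ClipR-14 minus control and ClipR-14 minus Clip, with 3 arrays per arm; filled points passed an adjusted p of 0.05. In the first panel 6 genes are filled, in the second none of the 10, and in the third 4.

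Kidneys taken 12 days after release were then set against control kidneys. None of the 10 passed between ClipR-14 and control kidneys (limma, BH-adjusted), where 1.83% of all genes were called (1.46% higher and 0.372% lower in ClipR-14). By no alternative did any of the 10 pass the adjusted threshold. At an unadjusted p under 0.05 there were 3 of the 10, and 3811 of all 17742 genes. Cp had levels of 2.07, 2.66 and 3.06 in ClipR-14 kidneys, against 1.81, 1.52 and 2.07 in control kidneys. The lowest ClipR-14 array was at the level of the highest control array. The change of Cp was 0.80 ± 0.26 (adjusted p = 0.134; 95% interval 0.21 to 1.39), and it was 0.26, 1.14 and 0.99 on the 3 slides. Trf had levels of -0.42, -0.20 and -0.27 in ClipR-14 kidneys, against -0.86, -0.42 and -1.03 in control kidneys, a change of 0.47 ± 0.17 (adjusted p = 0.167). Slc40a1 had levels of 2.85, 2.66 and 2.85 in ClipR-14 kidneys, against 2.51, 2.59 and 2.60 in control kidneys, a change of 0.22 ± 0.09 (adjusted p = 0.212). Cp, Trf and Slc40a1 are the 3 genes at an unadjusted p under 0.05. In the same comparison 6 of 13 macrophage and monocyte markers were higher in ClipR-14 kidneys (list median 0.85). With normexp 0 of the 13 were called (list median 0.54), where 1 of all 17742 genes was. With quantile normalization 5 of the 13 were higher. The part of these markers in the values above was not tested. Ireb2, Slc40a1 and Trf were the genes whose ClipR-14 and control arms did not overlap, against 27.2% of all genes. For Trf the gap was slight, with ClipR-14 1 at -0.4222 and sham 2 at -0.4245. The dimmer Ireb2 probe that passed the filter differed the other way (0.12 between ClipR-14 and control means), and its arms overlapped. Averaging the Ireb2 probes gave a change of -0.06. Meltf was well above background on 1 of 3 ClipR-14 arrays, ClipR-14 3, and on no control array, so no fold is given. For Tfrc (1.09, 0.82 and 1.16 in ClipR-14 kidneys) the change was -0.17 ± 0.22, for Slc11a2 0.08 ± 0.18, for Hfe -0.17 ± 0.20 and for Ireb2 -0.24 ± 0.15. The ferritin chains gave -0.16 ± 0.16 for Fth1 and -0.44 ± 0.23 for Ftl1 (adjusted p = 0.589 and 0.312). The Ftl1 levels were 7.12, 6.49 and 6.56 in ClipR-14 kidneys, so ClipR-14 1 was within the control range and the other 2 were below it.

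The third comparison set released against obstructed kidneys, and shares its arrays with the other 2. In ClipR-14 kidneys Meltf, Cp and Slc40a1 were lower than in Clip kidneys and Ireb2 was higher, 4 of the 10 genes, where 41.0% of all genes were called (23.5% higher and 17.4% lower). The 2 arms did not overlap for 7 of the 10 genes, against 54.8% of all genes. Cp was 8.53-fold lower (-3.09 ± 0.26, adjusted p = 4.82e-05) and Slc40a1 1.42-fold lower (-0.51 ± 0.09, adjusted p = 0.00260). The Slc40a1 call was lost with normexp (-0.25, adjusted p = 0.264). Meltf differed by -5.05 ± 0.54 (adjusted p = 0.000180), with 1 of 3 ClipR-14 arrays well above background, and by -2.63 with normexp. Ireb2 was 1.36-fold higher (0.44 ± 0.15, adjusted p = 0.0481), a call kept under 6 of 17 alternatives and lost on leaving out any 1 array other than untreated 1 or Clip 3 (adjusted p up to 0.152, without Clip 1). Its levels were 1.28, 1.31 and 1.34 in ClipR-14 kidneys, against 0.68, 0.79 and 1.13 in Clip kidneys, with no overlap. Trf differed by -0.39 ± 0.17 (adjusted p = 0.104). With slide as a block 7 of the 10 genes passed, where 8989 of all 17742 genes did. Tfrc (0.51, adjusted p = 0.00808) and Slc11a2 (0.31, 0.0429) were then higher and Hfe (-0.46, 0.0160) lower in ClipR-14 kidneys. Hfe had levels of 0.89, 0.81 and 1.16 in ClipR-14 kidneys, against 1.44, 1.19 and 1.59 in Clip kidneys, and Slc11a2 had 1.69, 1.91 and 2.09 in ClipR-14 kidneys, against 1.48, 1.56 and 1.70 in Clip kidneys. Fth1, at 9.14, 8.89 and 8.70 in ClipR-14 kidneys, differed from Clip by -0.04 ± 0.16 (95% interval -0.40 to 0.32). Ftl1 differed by -0.34 ± 0.23 (adjusted p = 0.273), and passed with quantile normalization (-0.64, adjusted p = 0.0226). On each of the 3 slides Tfrc and Slc11a2 were higher, and Hfe lower, in the ClipR-14 array than in the Clip array.

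**Figure D3:**
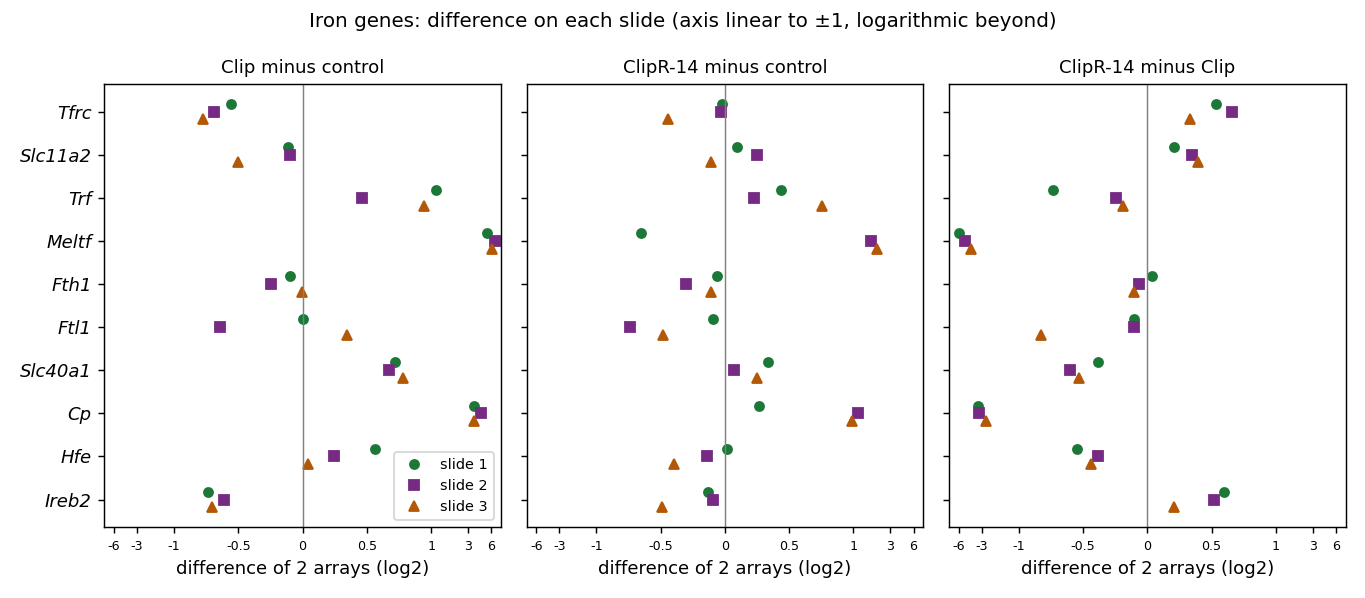
Difference between 2 arrays of the same slide (x axis, log2; linear to ±1 and logarithmic beyond) for each iron gene and comparison; markers are slides 1, 2 and 3, and slide 3 holds the untreated array. Tfrc and Ireb2 lie below 0 and Slc40a1, Trf, Cp and Meltf above 0 on every slide in the first panel, while Ftl1 lies on both sides.

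Slide 3 stood apart for several of the genes. The untreated array had the highest control level of Tfrc, Slc11a2, Hfe, Ireb2, Cp and, narrowly, Slc40a1 and the lowest of Fth1, Ftl1 and Trf. The ClipR-14 and Clip arrays of slide 3 were also the highest of their arms for Tfrc, Slc11a2, Hfe and Ireb2, and the lowest for Fth1. Some erythroid markers also varied widely between control kidneys. The 6 of 12 that passed the filter summed to 27.5 to 43.1 in Clip, 20.3 to 47.8 in ClipR-14 and 2.17 to 59.0 in control kidneys. These sums follow the bright globin genes. Klf1 (-3.03, -2.60 and -3.08 in control kidneys) and Epb42 (-5.63, -5.06 and -5.83) varied less. These Epb42 levels lay under the lowest signal well above background on the same arrays (-4.25, -4.23 and -4.36). Their spread is therefore that of dim signals. Between Clip and control kidneys 2 of the 6 were called higher and 1 lower, where 21.4% and 27.5% of all genes were. Hba-a1, for alpha globin, had levels of 3.08, 3.53 and 2.71 in Clip kidneys, against 3.87, 1.20 and -0.96 in control kidneys, the last in the untreated mouse. The erythroid genes Gata1 and Rhag were well above background on 0 of 9 arrays. Their part in the levels of the iron genes was not tested.

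By Pearson's r over the 9 arrays, the genes most like Meltf were Plac8 (0.998) and S100a11 (0.994), and those most like Cp were Slco2a1 and Emp2 (both 0.995). Meltf and Cp each had many near neighbours, with 464 and 699 of 13016 genes at an r over 0.95. For Tfrc, 15 genes reached that value, the nearest being Slc26a1 (0.993) and Dnajc3 (0.984), and for Ireb2 125, led by Synj2bp and Nmd3 (both 0.991). Slc40a1 ran nearest to Rad52 (0.990) and Cenpo (0.989), and Trf to Klhl31 (0.976) and Dlgap3 (0.970). Fth1 was nearest to Atp13a1 (0.992) and Rcc1l (0.979), Hfe to Tspan7 (0.984) and Pkia (0.976), and Slc11a2 to Ndst1 (0.989) and Gtf2ird2 (0.963). No gene reached 0.95 with Ftl1, for which Qprt came nearest (0.923), then Asf1a (0.914). The arrays share slides and the arm means, so these values describe likeness only.

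Other genes of iron and haem handling were followed in 6 lists of 70 genes, of which 58 passed the filter. In Clip kidneys 11 of the 58 rose, 31 fell and 16 did not pass, where 21.4% of all genes rose and 27.5% fell. Those shares are also the ones to set beside the counts of each list below. The median change of the 58 was -0.34, against -0.09 for all genes. With quantile normalization 13 rose and 19 fell. Mitochondrial iron and iron-sulfur cluster genes fell in 12 of 14 cases and rose in 0 (median -0.63; 7 fell and 0 rose with quantile normalization, median -0.33), with the cysteine desulfurase Nfs1 2.23-fold lower (-1.16 ± 0.10, adjusted p = 3.64e-05) and the mitochondrial transporter Abcb8 1.89-fold lower. In the haem list 11 of 17 fell and 1 rose (median -0.41), against 5 and 2 with quantile normalization and 7 and 1 with normexp. Fech, which inserts iron into the haem ring, was 2.13-fold lower, and Flvcr2 2.28-fold lower. The 1 that rose was Hmox1, for the haem-degrading enzyme heme oxygenase 1, at 3.99, 3.95 and 3.98 in Clip kidneys, against 2.62, 2.33 and 2.43 in control kidneys (1.51 ± 0.09, adjusted p = 8.59e-06). Proximal tubule markers fell in the same kidneys, and how far the mitochondrial genes ran with them was not tested.

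Of the iron-regulatory and ferritin turnover genes 2 of 5 fell and none of the 5 rose (1 rose with quantile normalization): Ncoa4, the receptor that takes ferritin to the lysosome, was 2.09-fold lower (-1.06 ± 0.09, adjusted p = 3.72e-05) and Aco1, which encodes IRP1, 1.84-fold lower (-0.88 ± 0.13, adjusted p = 0.000633). Both IRP genes, Aco1 and Ireb2, were thus lower in Clip kidneys. Among reductases, ferroxidases and other importers, 2 of 6 rose and 2 fell. Steap1, of a family of metalloreductases, was 6.45-fold higher, at 3.35, 3.45 and 3.53 in Clip kidneys, against 0.49, 0.59 and 1.17 in control kidneys. Steap2 was 1.75-fold higher, while the metal transporter Slc39a8 was 2.76-fold lower and the lysosomal channel Mcoln1 1.36-fold lower. In the list of uptake receptors and carriers 5 of 10 rose and 4 fell. The siderophore-binding protein Lcn2 rose by 6.87 on the log2 scale, with 2 of 3 control arrays well above background, and by 4.61 with normexp. The haemoglobin-binding Hp was 2.74 higher on that scale (1.92 to 3.56 over the alternatives), a call kept under 9 of 17 alternatives. Its arms overlapped, with Clip 2 at 0.24 and sham 1 at 0.44. Lrp2, for megalin, was 2.95-fold lower (-1.56 ± 0.17). The ferritin receptor gene Scara5 was at least 1.74-fold lower, with no Clip array well above background, and normexp gave it the other sign (0.31, adjusted p = 0.473).

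Of the hepcidin list 6 of 12 genes passed the filter. Hamp, which encodes hepcidin, was well above background on 0 of 9 arrays, as were Hamp2, Hjv, Tfr2, Bmp2 and Erfe, so these data give no change for them. In Clip kidneys 3 of the 6 rose and 0 fell. Tmprss6 encodes matriptase-2, a protease that restrains hepcidin in the liver. With the dim side set at the lowest signal well above background, Tmprss6 was at least 3.74-fold higher in Clip than in control kidneys. The fitted change was 4.06 ± 0.28 (limma, adjusted p = 1.45e-05), and 1.22 with normexp, which is below that bound. No control or ClipR-14 array was well above background for Tmprss6. It passed the filter through the Clip arrays alone, so the filter favoured the group in which it was high. Bmp6, an inducer of hepcidin, was 1.82-fold higher (0.87 ± 0.08, adjusted p = 7.00e-05).

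**Figure D4:**
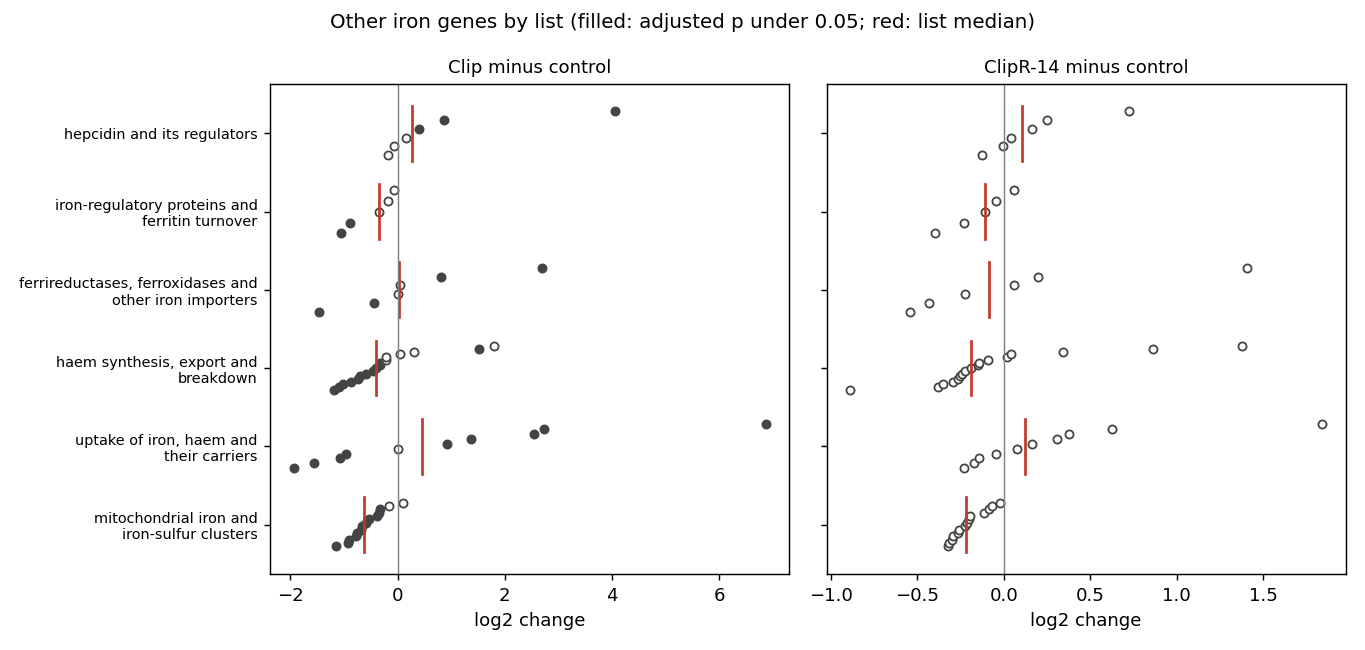
Log2 change (x axis; each panel has its own range) of the 58 other iron and haem genes, grouped by list, for Clip minus control and ClipR-14 minus control; each point is a gene, filled where it passed an adjusted p of 0.05, and red bars are list medians. Mitochondrial genes lie almost all left of 0 in the first panel, and no point is filled in the second.

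Between ClipR-14 and control kidneys 0 of the 58 genes passed (limma, BH-adjusted), with a median change of -0.14 against -0.01 for all genes. At an unadjusted p under 0.05 there were 20 of the 58, and 3811 of all 17742 genes. With normexp 4 of the 58 reached it (1341 of all genes), and with quantile normalization 13 (3332 of all genes). With slide as a block 5 of the 58 passed, where 1163 of all 17742 genes did. Lcn2 (1.84, adjusted p = 0.0490) and Heph, for the ferroxidase hephaestin (1.41, 0.0347), were higher. Alad (-0.38, 0.0477), Ncoa4 (-0.40, 0.0442) and Steap2 (-0.43, 0.0474) were lower. Alas1 passed with sham arrays alone as control (-1.12, 0.0478). Tmprss6 passed with replicate number as a block (0.995, 0.0472), though no array of either arm was well above background for it. These genes are named after their values were seen. All 14 mitochondrial genes had values below 0 (-0.32 to -0.02), none past the threshold. Their median was -0.22, and -0.12 with quantile normalization, where the median of all genes was -0.01 and 0.01. Between ClipR-14 and Clip kidneys 23 of the 58 were higher and 11 lower in ClipR-14, where 23.5% of all genes were higher and 17.4% lower. With normexp 14 were higher and 8 lower. Hmox1 was 3.26-fold lower, Steap1 6.19-fold lower, and Steap2 2.36-fold lower, and Nfs1 2.10-fold, Iscu 1.66-fold, Flvcr2 2.30-fold, Slc39a8 3.17-fold, Lrp2 2.51-fold, Ncoa4 1.58-fold and Aco1 1.56-fold higher. Lcn2 differed by -5.03 on the log2 scale (-3.93 with normexp). Tmprss6 was at least 3.103-fold lower in ClipR-14 than in Clip kidneys, and its change with normexp (-1.18) was smaller than that bound. Hp differed by -2.78 (-3.61 to -1.96 over the alternatives), a call kept under 11 of 17. Bmp6 was 1.54-fold and Nfu1 1.32-fold lower, and Uros 2.10-fold and Smad6 1.27-fold higher. Normexp ended these 4 calls, with adjusted p of 0.0677 for Bmp6, 0.164 for Nfu1, 0.249 for Uros (0.38 on the log2 scale) and 0.294 for Smad6. Scara5 was at least 1.58-fold higher in ClipR-14 kidneys, with the other sign under normexp (-0.37, adjusted p = 0.422). Heph was 2.57-fold higher in ClipR-14 than in Clip kidneys, but normexp gave -0.11 (adjusted p = 0.820).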

How the data were processed

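Total RNA (500 ng per kidney, per the labels) was labelled with Cy3 and measured on 9 arrays of Agilent design 014868. Per the file headers, the authors read them with Feature Extraction 10.7.3.1 (protocol GE1_107_Sep09), which gives each spot as a background-subtracted intensity, with no scaling between arrays. Other deposited columns flag each spot as saturated, as an outlier or as clearly brighter than its background; 0 spots were saturated. A deposited table of log2 values was not used, because its rows did not follow the probes they name (median correlation 0.0188 over 8065 rows).

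Each intensity was scaled to its array's 75th percentile over non-control spots, then taken to log2. Spots of a probe were averaged without outlier spots, and probes well above background on at least 3 of 9 arrays were kept (23544 of 41174; a further 21 were left out for outlier flags). RefSeq accessions gave 26690 probes a symbol and left 14484 without. The brightest probe stood for each of 17742 genes. Of these, 13017 had a symbol and 4725 an accession alone, each such accession being counted as a gene. limma 3.58.1 (R 4.3.3) fitted the 3 arms over all 9 arrays, and p-values were BH-adjusted over all genes, with 0.05 as the threshold. Errors are standard errors of that fit. The number of arrays limits the precision, and each sample, a whole left kidney with its own number in the labels, was taken as 1 mouse. The script was tested on simulated data.

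The members and lists were chosen with earlier results of these data known. The genes named are the 10 members, per list and comparison up to 2 rises and 2 falls past the threshold, and the 2 genes most like each member; others are marked or are markers, some of which are not reported here. The alternatives were normexp (planned on mean spot signals, run on the median signals that the files used here give), quantile normalization, no filter, the mean of a gene's probes, slide or replicate number as a block, sham arrays alone as control, the 2 arms alone, and each array left out. Deviations from arm means correlated at 0.161 to 0.282 between arrays of different arms on the same slide. Replicate numbers follow the slides for the Clip, ClipR-14 and sham arrays, but untreated 1 lay on slide 3. It correlated at -0.209 with Clip 1 and with ClipR-14 1. Among the alternatives, slide was therefore preferred to replicate number as the block. The main fit had no block, so its p-values do not take the slides into account.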

Additional observations from a re-analysis of the deposited data

How the results depend on the processing

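The count of the 10 iron genes called between Clip and control (6) stayed within 1.5 times under all 17 alternatives, 5 to 6 on leaving out 1 array. Between ClipR-14 and control it was 0 throughout. Between ClipR-14 and Clip (4) normexp gave 2, the slide block 7, and fits without 1 array 3 to 5. With the replicate number as a block the 3 counts were 6, 0 and 4.

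Over all genes, the Clip against control count (8676) was 5626 with normexp, which moved the median change of all genes to 0.10 from -0.09 (quantile normalization to -0.0020, no filter to -0.24), and 7147 to 8605 on leaving out 1 array. The ClipR-14 against control count (325, of 3811 at an unadjusted p under 0.05) was 1 with normexp, 115 with quantile normalization, 12 with no filter, 1163 with the slide block, 202 with the replicate block, 0 with the 2 arms alone (3384 unadjusted) and 2 to 343 without 1 array, lowest without ClipR-14 2. The ClipR-14 against Clip count (7270) was 4144 with normexp, 7367 with quantile normalization (3535 higher and 3832 lower, against 4178 and 3092), 13597 with no filter and 5712 to 7652 without 1 array.

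Among the 10 iron genes, changes that turned sign passed in neither setting (Scara5 and Heph, given above, passed and turned sign with normexp). For Clip against control they were Fth1 and Ftl1 with quantile normalization (0.19 and 0.36) and Ftl1 without Clip 2 (range without 1 array -0.26 to 0.14). For ClipR-14 against control they were Tfrc and Hfe with sham arrays alone, which is also the fit without untreated 1 (0.039 and 0.043; ranges without 1 array -0.33 to 0.039 and -0.30 to 0.043), Slc11a2 without sham 1 (-0.033) or ClipR-14 3 (range -0.033 to 0.27), and Fth1 with quantile normalization (0.063). For ClipR-14 against Clip they were Fth1 with normexp (0.19), without Clip 1 or ClipR-14 3 (range -0.16 to 0.064). The causes were not tested. For Meltf and Tmprss6, dim in control kidneys, signal over background limits the size of the change.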
